A study of Oryza sativa with 10 samples.

Results

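Nuclear rice genes that had reads in roots of the line S13 and none in roots of the line S3 are described here. A gene was chosen when it had at least 1 CPM in all 5 S13 libraries and 0 counts in all 5 S3 libraries. CPM is counts per 1000000 counts of the library total. Of 37711 nuclear genes, 58 met this rule. They are called S13-only genes below. The rule left aside an interval of chromosome 1 with 138 genes, of which 0 met the same thresholds. The S13 and S3 counts themselves chose the genes, so the difference between the lines is given as a description with no test. The salt response within S13 was not part of the choice and was tested, although the minimum in every S13 library keeps out genes that fall below it in either condition.

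The study sequenced RNA from roots of 42-day-old plants of 2 rice genotypes, S13, labelled salt tolerant, and S3, labelled salt susceptible. Salt plants stood in culture solution with 140 mM NaCl for the last 12 days, and control plants stayed in solution without it (0 mM). Each line had 2 control and 3 salt libraries, with 22938524 to 25703942 counts summed over the genes per library. No label ties a library to a plant of its own, so a p-value here reflects library-to-library spread only. How much of that spread is technical was not tested. Genes carry rice identifiers whose first digits give the chromosome, and none of the 58 could be paired with a gene name, so no function is given. For the same reason the label root was not checked against marker genes. A level in bulk root RNA cannot tell fewer cells of a type from less RNA per cell.

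Rice lines are known to differ in gene content as well as in sequence, and stretches present in one line can be missing, rearranged or strongly diverged in another. Reads of every line are commonly aligned to one reference genome, here IRGSP-1.0, the assembly of the cultivar Nipponbare. A gene without aligned reads in a line may be silent there, absent from its genome, or too different from the reference for its reads to align. Counts alone cannot tell these apart, and none of the 3 was tested.

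The 58 genes were 0.322% of the 18038 nuclear genes at the S13 minimum. The same rule with the lines exchanged gave 36 S3-only genes, 0.194% of the 18516 nuclear genes at the S3 minimum. Among genes at the S13 minimum, 8 had a summed S3 count of 1, 6 had 2 to 3, 12 had 4 to 10, 11 had 11 to 30, 38 had 31 to 100 and 17905 had more. A summed S3 count of 0 was thus more frequent than all sums of 1 to 30 added up. A count of 0 allows up to 3 counts, which is 0.124 to 0.131 CPM in a single S3 library, for counting error only.

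Just inside the S13 threshold lay Os04g0380000 and Os03g0104901, with lowest values of 1.13 and 1.14 CPM on library totals. Just outside lay Os04g0323800 and Os03g0105401, each with 0 S3 counts and a lowest S13 value of 0.973 CPM. Os04g0323800 had 598 and 685 counts in the S13 controls and 127, 24 and 25 in the salt libraries. Just outside on the S3 side lay Os01g0598900, with 1 S3 count against 1554, 1514, 690, 411 and 691 S13 counts. Os06g0355300 also had 1 S3 count, against 225, 287, 514, 1062 and 395 in S13.

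The S13 libraries did not all carry reads at the same loci. Counting genes with at least 1 CPM in 4 libraries of a line and 0 counts in the fifth, a check added after the values were seen, gave 17 genes missing from S13 control 1, 1 from S13 control 2, 0 from S13 salt 1, 5 from S13 salt 2 and 7 from S13 salt 3. In S3 the same count was 1 for control 2 and 0 for each of the other 4 libraries. Os04g0405401 is one of the 17: it had 0 counts in S13 control 1, 714 in control 2, 397, 191 and 217 in the salt libraries and 0 in S3. Os09g0325300 had 0 counts in S13 control 1 and 505 to 1240 in the other S13 libraries, with 608 to 1044 in S3. Genes under 1 CPM in a further library are outside this count, so its numbers are lower limits. Os06g0118700 is left out in this way, with 627 and 314 counts in the S13 controls and 40, 0 and 17 under salt. The rule asks for reads in every S13 library, so genes with an S13 library at 0 are not among the 58. Whether the S13 libraries came from plants of uniform genotype was not tested, and a difference between S13 salt and control libraries cannot be told apart from a difference between the plants behind them. Leaving S13 control 1 out of the rule gave 66 genes, leaving out S13 salt 2 gave 69, and leaving out S13 salt 3 gave 63, each with all 58 among them. Leaving out S13 control 2 or S13 salt 1 gave the same 58.

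Library values from here on are CPM scaled by trimmed mean of M-values factors (TMM-scaled CPM), which put libraries on a common scale. Most S13-only genes were read at low to middle levels. The mean of the 2 S13 controls ran from 1.13 to 96.1 TMM-scaled CPM with a median of 7.23; it was under 5 in 26 genes, 5 to 20 in 22 and 20 or more in 10. Per kilobase of exon, the median control level was 5.10 CPM per kb (quartiles 2.71 and 11.5), against 9.70 (quartiles 4.28 and 23.2) over the 17980 nuclear genes that met the S13 minimum and had S3 counts. The highest control levels per kb were 113.4 in Os06g0147100, 64.7 in Os06g0146800, 56.0 in Os12g0299300, 40.4 in Os03g0349700 and 38.2 in Os06g0347100. Of these, Os03g0349700 lies wholly inside Os03g0349600, which had 12.3 per kb, and the reads of the pair cannot be told apart. Set against a floor of 3 counts over the S3 libraries of the same condition, levels were at least 24-fold to at least 2011-fold higher in the S13 controls, with a median bound of 151.5, and at least 37-fold to at least 10407-fold higher under salt, with a median bound of 148. The upper ends belonged to Os12g0299300 in the controls and Os06g0147100 under salt. The rule chose this contrast, and low genes have low bounds. The spread between libraries was like that of the other genes at the minimum: the median SD of log2(TMM-scaled CPM + 0.5) was 0.144 against 0.142 between the controls and 0.425 against 0.381 between the salt libraries.

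**Figure D1:**
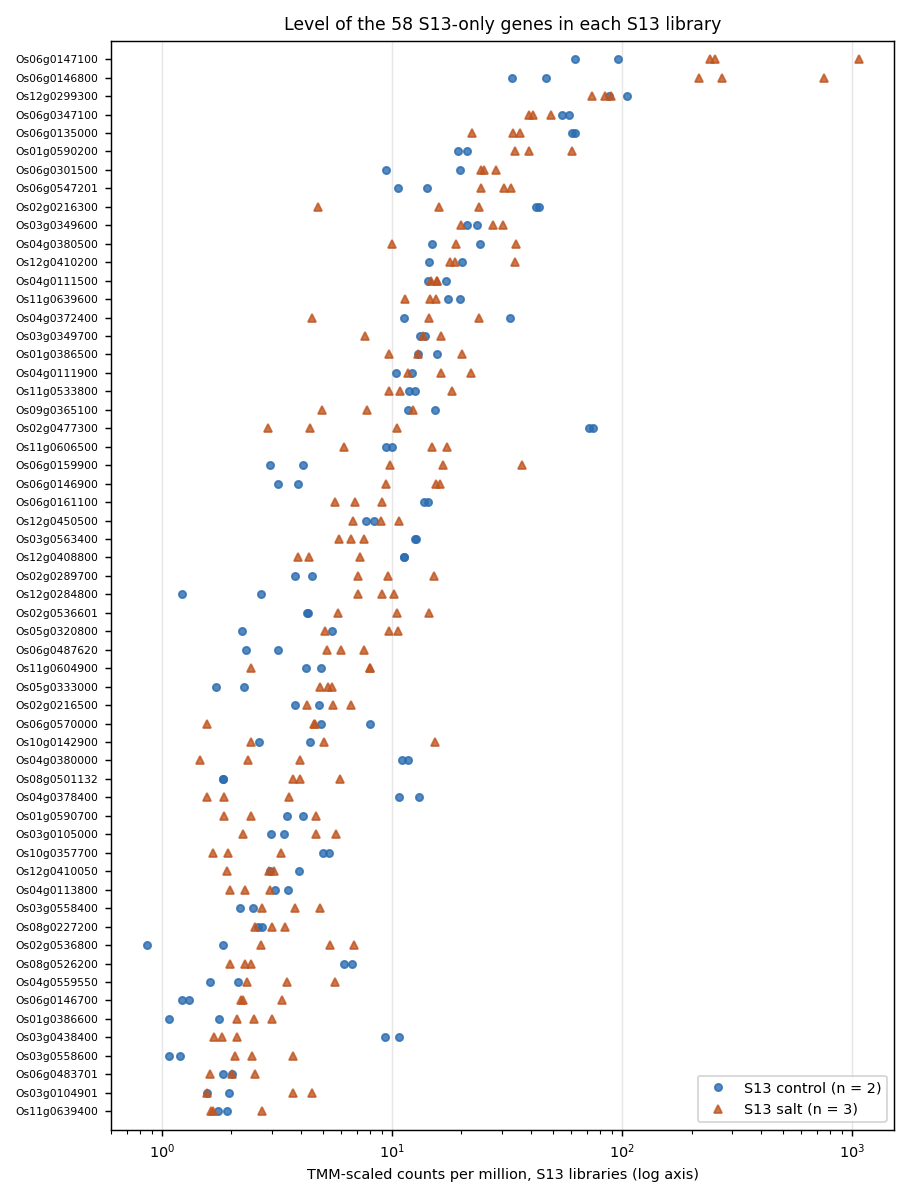
Each line is an S13-only gene, ordered by its median over the 5 S13 libraries. Points give TMM-scaled CPM on a log axis in the 2 control (circles) and 3 salt (triangles) S13 libraries. Os06g0147100 and Os06g0146800 stand at the top, with salt libraries from 215.1 to 1067 CPM.

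The most highly read stretch lay on chromosome 6. Os06g0146700, Os06g0146800 and Os06g0146900 are neighbours, all on the minus strand, from 2446226 to 2451669, and formed the only run of 3 S13-only genes. A run here means S13-only genes with no gene between them that has a read in any S3 library. Os06g0147100, at 2457429 to 2458126, follows after Os06g0147000, which kept it out of the run with 11 S3 counts in all. Os06g0146800 (2449205 to 2449822) and Os06g0147100 each have a single exon, of 618 and 698 bases.

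In Os06g0146800 the controls had 46.8 and 33.1 TMM-scaled CPM and the salt libraries 272.1, 755.4 and 215.1. The salt libraries were all higher, with the second far above the other two. The fitted log2 fold change of salt against control was 3.37 ± 0.62 (SE), adjusted p = 0.00817 by edgeR's quasi-likelihood test with Benjamini-Hochberg adjustment over all genes tested. Os06g0147100 had 96.1 and 62.2 TMM-scaled CPM in the controls and 241.5, 1067 and 252.1 under salt. Again the groups did not overlap and salt library 2 was the highest. Its log2 fold change was 2.72 ± 0.73 (SE), adjusted p = 0.0299. Without S13 salt library 2 the log2 fold changes were 2.61 for Os06g0146800 and 1.64 for Os06g0147100, both still called. Without S13 control 1 or control 2 neither was called: adjusted p was 0.0614 and 0.0661 for Os06g0146800, and 0.121 and 0.164 for Os06g0147100. Os06g0147100 was also not called in a fit of the S13 libraries alone, with adjusted p = 0.0515.

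Os06g0146900 (2450210 to 2451669) was read at a lower level, with 3.91 and 3.18 TMM-scaled CPM in the controls and 9.41, 16.1 and 15.5 under salt. All salt libraries lay above both controls, and the log2 fold change was 1.94 ± 0.41 (SE), adjusted p = 0.0129. It too was not called without control 1 (adjusted p = 0.0864) or without control 2 (adjusted p = 0.1). Os06g0146700 (2446226 to 2447357) had 1.31 and 1.22 in the controls and 2.24, 2.20 and 3.33 under salt. Its groups did not overlap either, but the log2 fold change of 1.03 ± 0.52 (SE) was not called, with adjusted p = 0.176.

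The genes around these 4 differed in their S3 reads. On the side of lower coordinates, Os06g0146600 and Os06g0146650, which overlap, had 211 and 187 counts over the S13 libraries and 0 in S3, below the S13 minimum. The next gene outward, Os06g0146500 (2437774 to 2439904), was read in both lines, with 8504 S13 and 12286 S3 counts. On the other side, Os06g0147000 inside the stretch had 2466 S13 counts against 11. Os06g0147200 followed with 497 against 85, and Os06g0147250 with 1346 against 64. Os06g0147300 (2472738 to 2473344), the nearest gene there with at least 1 CPM in all 10 libraries, had 5235 against 2064. In Os06g0147300 the S13 libraries were far apart, with 48.4 and 22.6 TMM-scaled CPM in the controls and 20, 129 and 10.9 under salt. Salt library 2 was again the highest of the 5. Os06g0147000 had 17.2 and 13.2 in the controls and 15.5, 34.7 and 26.1 under salt, and these overlapped.

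**Figure D2:**
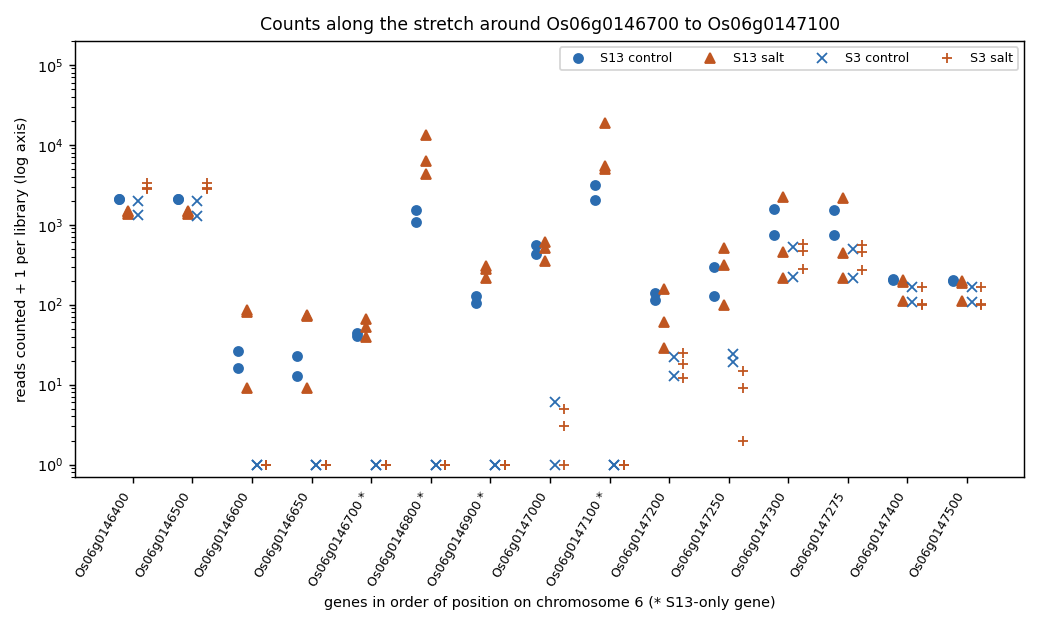
Genes are in order of position on chromosome 6, and the log axis gives the reads counted plus 1 in each of the 10 libraries, as counted and without scaling. The 4 starred S13-only genes and Os06g0146600 and Os06g0146650 have 0 counts in all S3 libraries, while Os06g0146500 and Os06g0147300 at the sides have counts in all 10.

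In all, 23 of the 58 genes fell into 11 runs and 35 stood outside a run. In 4 of the 11 runs the genes share exon bases, and in the other 7 they do not. Reads appear to have been counted without regard to strand: in 112 of 112 pairs of genes on opposite strands that share at least 90% of their bases, the counts lay within 10% of each other. Overlapping genes can therefore not be told apart. Joining genes whose shared exon bases made up 0.5 or more of the shorter one left 55 loci, with 17 genes in 8 runs. The overlapping pairs in runs were Os02g0536601 with Os02g0536800, Os03g0104901 with Os03g0105000, Os03g0349600 with Os03g0349700, and Os03g0558400 with Os03g0558600. Os03g0104901 and Os03g0105000 share 700 bases, which is under that share, so they were not joined and still count as separate loci and as a run.

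Os03g0349600 (chromosome 3, 13122682 to 13124496) had 23.3 and 21.2 TMM-scaled CPM in the controls and 20, 30.3 and 27.3 under salt. Os03g0349700 (13122845 to 13123180), on the other strand and wholly inside it, had 13.2 and 13.9 in the controls and 7.65, 16.3 and 13.6 under salt. In both genes the conditions overlapped. This locus had well-read genes close on either side: Os03g0349400, 7222 bp away, had 421 S13 and 483 S3 counts, and Os03g0350100, 1650 bp away, had 5757 and 6100. The interval without S3 reads was thus short here.

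On chromosome 4, Os04g0111500 (661317 to 667540) had 17.1 and 14.3 TMM-scaled CPM in the controls and 15.7, 15.7 and 14.8 under salt. The 5 libraries lay close together and the conditions overlapped. Its neighbour Os04g0111900 (681115 to 687690) had 12.2 and 10.4 in the controls and 16.3, 21.9 and 11.7 under salt, also overlapping. They lay in a stretch of 6 genes at 0 in S3, of which 4 had S13 counts. The flanking genes Os04g0111200 and Os04g0112200 had 70 or more counts in each of the 10 libraries.

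On chromosome 2, Os02g0216300 (6508874 to 6524586) had 43.6 and 42.0 TMM-scaled CPM in the controls and 15.9, 23.9 and 4.75 under salt. All salt libraries were lower, by unequal amounts, and the log2 fold change of -1.53 ± 0.56 (SE) was not called, with adjusted p = 0.0793 by edgeR's quasi-likelihood test. Os02g0216500 (6529685 to 6533054) had 4.8 and 3.79 in the controls and 5.54, 6.65 and 4.24 under salt, which overlapped. Around them lay the longest stretch at 0 in S3, of 9 genes, of which 5 had S13 counts. Os02g0216600 and Os02g0216700 in that stretch had 606 and 419 S13 counts and did not reach 1 CPM in every S13 library. The flanking genes Os02g0215200 and Os02g0217500 were read in all 10 libraries.

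On chromosome 1, Os01g0590200 (23023170 to 23026116) had 19.4 and 21.1 TMM-scaled CPM in the controls and 39.3, 34.0 and 60.2 under salt. The salt libraries were all higher, and the log2 fold change was 1.14 ± 0.33 (SE), adjusted p = 0.0406. It was called in 7 of 14 settings and not without S13 control 1, control 2, salt 1 or salt 3, and adjusted p reached 0.394 with library totals. Its partner Os01g0590700 (23073608 to 23079776) had 3.48 and 4.09 in the controls and 4.66, 1.85 and 2.42 under salt, which overlapped. The gene between them, Os01g0590300, had 28 S13 counts and 0 in S3. The flanking genes Os01g0589800 and Os01g0590900 had 692 and 1672 S13 counts against 1112 and 1299 in S3.

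The 3 runs not yet described whose genes do not overlap had no called gene. On chromosome 12, Os12g0410050 (12449549 to 12450779) had 2.93 and 3.94 TMM-scaled CPM in the controls and 2.90, 3.06 and 1.92 under salt, while Os12g0410200 (12472015 to 12472828) had 20.1 and 14.5 against 18.8, 34.0 and 17.8. Os12g0410150 between them had 199 S13 counts and 0 in S3. The conditions overlapped in both S13-only genes, and the gene beyond, Os12g0411700, had 1568 S13 counts against 85 in S3.

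On chromosome 11, Os11g0639400 (25279810 to 25280531) was the gene with the fewest reads of the 58, 237 counts over the S13 libraries. Its neighbour Os11g0639600 (25289129 to 25293951) had 19.8 and 17.5 TMM-scaled CPM in the controls and 14.6, 15.5 and 11.4 under salt. Every salt library of Os11g0639600 lay below both controls, and its log2 fold change of -0.43 ± 0.30 (SE), adjusted p = 0.322, was not called. On chromosome 1, Os01g0386500 (16224955 to 16226730) had 15.7 and 13 in the controls and 20.2, 9.65 and 12.9 under salt, which overlapped. Os01g0386600 (16227573 to 16227890), on the other strand, had 1.77 and 1.07 against 2.51, 3.01 and 2.12, all higher under salt and not called (adjusted p = 0.27). The next gene, Os01g0386700, was read alike in both lines by its totals, with 7722 S13 and 8341 S3 counts.

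S13-only genes lay on 11 of the 12 chromosomes. Chromosome 6 held 13, or 8.92 per 1000 genes at the S13 minimum, followed by chromosome 12 with 6.58, chromosome 11 with 6.55 and chromosome 4 with 5.03. Chromosome 7 held 0 and chromosome 9 held 1. The 0 of chromosome 7 holds for this rule only. Os07g0277600 and Os07g0434100, named after their values were seen, had 0 S3 counts and reached 1 CPM in both S13 controls. They did not reach it in all salt libraries. By windows of 1 Mb, 37 of 379 held at least 1 such gene, 15 held at least 2 and 4 held at least 3. The highest number in a window was 4, reached on chromosome 4 from 18000001 to 19000000, among 41 genes at the S13 minimum, and on chromosome 6 from 2000001 to 3000000, among 96. The window on chromosome 4 held Os04g0372400, Os04g0378400, Os04g0380000 and Os04g0380500, none of them in a run.

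**Figure D3:**
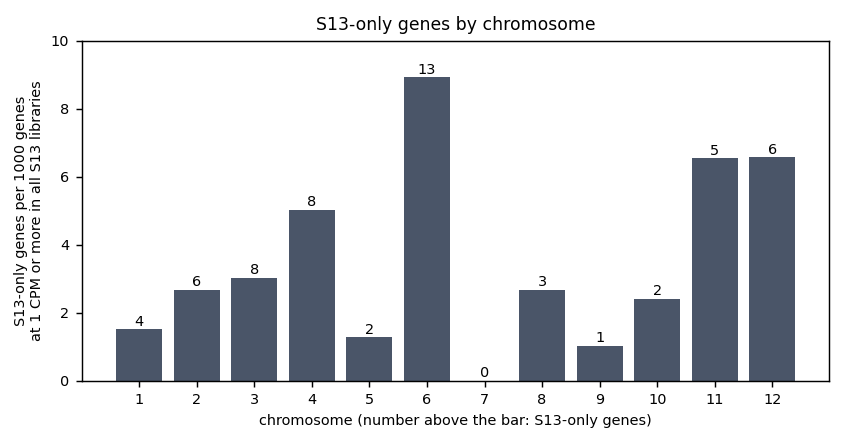
Bars give S13-only genes per 1000 nuclear genes at 1 CPM or more in all S13 libraries, for each chromosome, with the number of genes above the bar. Chromosome 6 is highest at 8.92 and chromosome 7 is at 0.

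With the overlapping pairs included, another S13-only gene lay within 100 kb of 31 of the 58 genes and within 1000 kb of 41. An S3-only gene lay within 100 kb of 1 of them: Os06g0347100 was 53837 bp from the S3-only gene Os06g0347966. Leaving out genes that share exon bases with it, the next gene on either side had 0 S3 counts and at least 10 S13 counts for 18 of the 58 (31%), against 177 of the 17980 other genes at the S13 minimum (0.984%). Counts of S3 at 0 are what chose the genes, so this contrast is a description. Stretches at 0 in S3 were 1 to 9 genes long with a median of 2, and 22 S13-only genes stood alone in theirs. The nearest gene with at least 1 CPM in all 10 libraries was 285 to 132443 bp away, with a median of 14149 bp, and within 10 kb for 23 genes.

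Among the measures of gene structure the widest gap to the other genes at the S13 minimum was in exon number. A single exon block made up 24 of them (41.4%), against 17.2% of the 17980 other genes. Median exon length was 1460 bases against 1584. Exon bases shared with another gene were found in 10 (17.2%) against 33.2%, and 23 (39.7%) lay on the plus strand against 50.6%. Reads in shared bases appear to count for both genes, so the rule tends to leave out genes that overlap a gene read in S3. These shares were not tested, since the genes were chosen by their counts and neighbours are not independent.

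Salt response within S13 was mixed. Of the 58 genes 8 rose (13.8%) and 6 fell (10.3%) at adjusted p under 0.05, by edgeR's quasi-likelihood test with Benjamini-Hochberg adjustment over 28189 genes. Over all genes tested 12.8% rose and 14.2% fell, and over the 17980 genes that met the same S13 minimum and had S3 counts 16.2% rose and 10.1% fell. In either direction 14 of the 58 (24.1%) were called, against 27.1% of all genes and 26.3% of the genes at the S13 minimum. In this fit the share of S13-only genes was thus close to the background. The other 44 were not called. Salt libraries lay all above both controls in 19 genes (32.8%) and all below in 15 (25.9%), and overlapped in 24. The same arrangements held for 25.8% and 31.7% of all genes tested and for 32.0% and 25.6% of the genes at the S13 minimum. The median log2 fold change was 0.19 (quartiles -0.45 and 1.13), against -0.03 over all genes and 0.14 over the genes at the S13 minimum.

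These counts depended on each of the 2 control libraries and on the scaling. Without S13 control 1, 0 genes rose and 1 fell, and without S13 control 2, 1 rose and 2 fell. Over all genes the calls fell as well, to 1.89% higher and 3.25% lower without control 1. When library totals replaced the TMM factors, 4 of the 58 rose and 15 fell, against 4.88% and 35.5% of all genes. That scaling moved the median of all genes from -0.03 to -0.76, and the median of the S13-only genes to -0.55. DESeq2 called 13 higher and 9 lower, and limma-voom 15 and 11, each with all 14 calls of edgeR among them. Over all genes DESeq2 called 17.6% higher and 16.2% lower, and limma-voom 12.6% and 16.5%. The share of S13-only genes relative to all genes thus differed between methods. Shares over the genes at the S13 minimum are not given here for these other settings. In the main fit those shares differed from the shares over all genes.

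**Figure D4:**
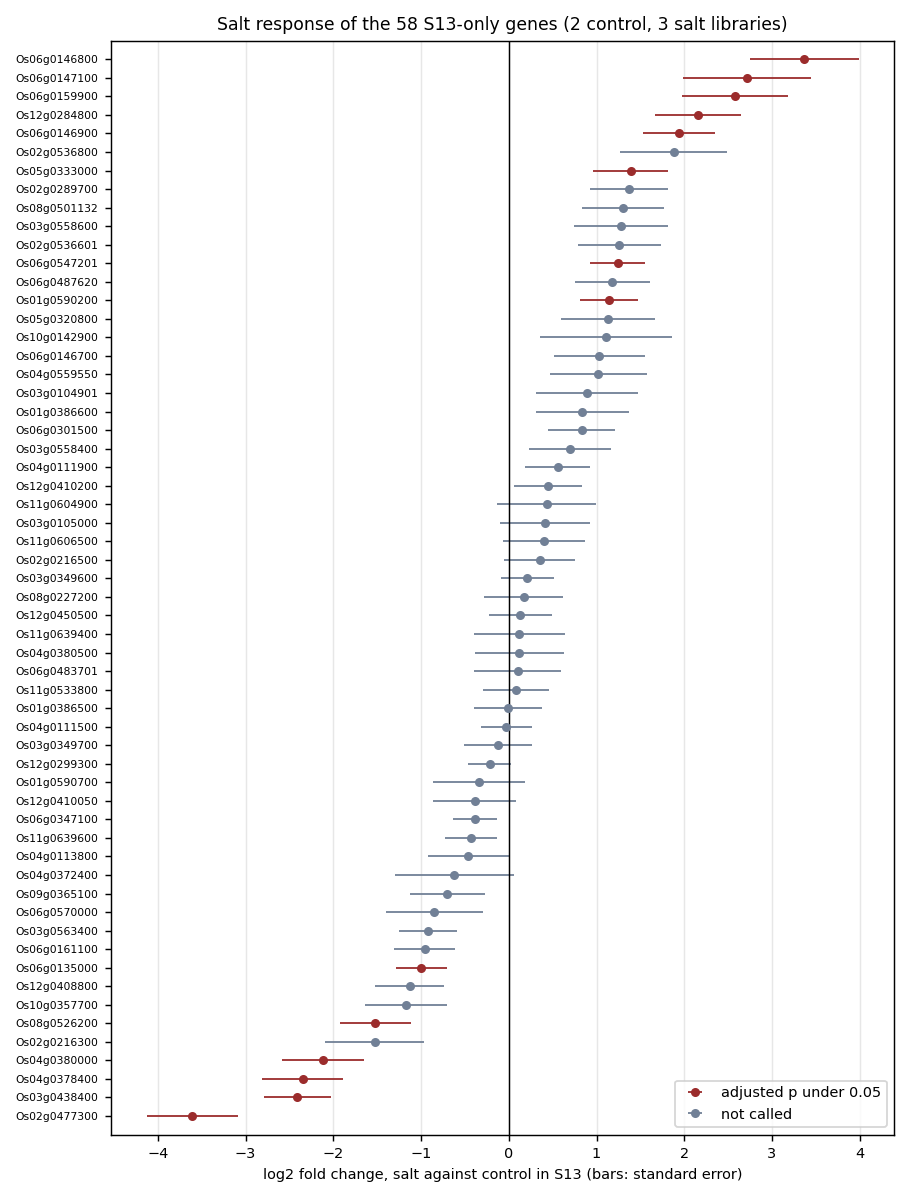
Points give the fitted log2 fold change of salt against control in S13 for the 58 S13-only genes, ordered by value, and bars give the standard error (2 control and 3 salt libraries). Red marks the 14 genes with adjusted p under 0.05, from Os06g0146800 at 3.37 to Os02g0477300 at -3.61.

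Of the 8 genes that rose, 5 lie on chromosome 6, among them the 3 of the stretch described above. Chromosome 6 held 13 of the 58 S13-only genes, and rises over all its genes were not counted. Os06g0159900 (3051248 to 3055005) had 2.93 and 4.09 TMM-scaled CPM in the controls and 16.7, 36.6 and 9.75 under salt. Its salt libraries were all higher and salt library 2 the highest, with a log2 fold change of 2.58 ± 0.60 (SE), adjusted p = 0.0189. Without salt library 2 it was 1.91 and still called, and without control 1 or control 2 it was not called (adjusted p = 0.135 and 0.0863). Os06g0547201 (20696659 to 20697323) had 14.1 and 10.6 in the controls and 24.2, 32.9 and 30.5 under salt. It rose by 1.24 ± 0.31 (SE) on the log2 scale, adjusted p = 0.0248. With library totals the value was 0.49 and was not called, and neither was it called without control 1 or control 2.

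Os12g0284800 (chromosome 12, 10804334 to 10805254) had 1.22 and 2.69 TMM-scaled CPM in the controls and 9.01, 7.11 and 10.2 under salt. The groups did not overlap, and the log2 fold change was 2.16 ± 0.49 (SE), adjusted p = 0.0172. It was 1.70 and not called without control 1, 2.84 and called without control 2, and 1.43 with library totals, not called (adjusted p = 0.0578). Os05g0333000 (chromosome 5, 15590949 to 15591872) had 1.71 and 2.26 in the controls and 5.49, 4.86 and 5.25 under salt. Its salt libraries were all higher and close together, but its log2 fold change of 1.39 ± 0.43 (SE), adjusted p = 0.0482, was called in 5 of 13 settings. It is the least stable of the 8 by that count.

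Among the 6 genes that fell, Os02g0477300 (chromosome 2, 16347717 to 16350263) changed most. Its controls had 74.6 and 71.6 TMM-scaled CPM and its salt libraries 10.5, 2.89 and 4.39. Both controls stood far above every salt library, and the log2 fold change was -3.61 ± 0.52 (SE), adjusted p = 0.00359. It is the 1 gene of the 14 that was called in all 14 settings tried, including without either control library. Leaving out a library in turn gave values from -4.33 to -3.29.

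Os03g0438400 (chromosome 3, 18495806 to 18500989) had 10.7 and 9.32 TMM-scaled CPM in the controls and 2.11, 1.68 and 1.82 under salt. The salt libraries lay close together below both controls, and the log2 fold change was -2.41 ± 0.38 (SE), adjusted p = 0.00501. It was not called without S13 control 1, with adjusted p = 0.0596.

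Os04g0378400 (chromosome 4, 18478742 to 18480215) had 13.1 and 10.7 in the controls and 3.56, 1.85 and 1.57 under salt. Its log2 fold change was -2.35 ± 0.46 (SE), adjusted p = 0.0103. Os04g0380000 (18589059 to 18595952), in the same 1 Mb window, had 11.7 and 11 in the controls and 2.37, 3.99 and 1.46 under salt. Both genes had every salt library below both controls, and the log2 fold change of Os04g0380000 was -2.12 ± 0.47 (SE), adjusted p = 0.016. Both lost the call without S13 control 1 and without S13 control 2. The other S13-only genes of that window were not called. Os04g0372400 had 32.6 and 11.2 in the controls and 23.8, 14.5 and 4.5 under salt, and Os04g0380500 had 24 and 14.9 against 19.0, 34.4 and 10. In both the conditions overlapped.

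Os08g0526200 (chromosome 8, 26174083 to 26176027) had 6.69 and 6.14 TMM-scaled CPM in the controls and 2.29, 1.97 and 2.42 under salt. It fell by 1.52 on the log2 scale, with an SE of 0.40 and adjusted p = 0.0277. It was not called without control 1, control 2 or salt 1, with adjusted p of 0.173, 0.132 and 0.0678. Os06g0135000 (chromosome 6, 1880537 to 1890909) had 62.0 and 60.5 in the controls and 35.8, 22.3 and 33.6 under salt. Its log2 fold change was -1.0 ± 0.29 (SE), adjusted p = 0.0392, and the call was lost when any one of the 5 S13 libraries was left out. In both genes all salt libraries lay below both controls.

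Some of the most highly read genes did not pass the test. Os12g0299300 (chromosome 12, 11904703 to 11907272) had 87.7 and 104.5 TMM-scaled CPM in the controls and 89.4, 74.0 and 84.0 under salt. The conditions overlapped, and the log2 fold change was -0.22 ± 0.25 (SE), adjusted p = 0.536. Os06g0347100 (chromosome 6, 13947426 to 13951272) had 58.4 and 54.9 in the controls and 49.2, 40.8 and 39.3 under salt. Its salt libraries were all lower, by a log2 fold change of -0.39 ± 0.25 (SE), adjusted p = 0.278.

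Together the 58 genes took 0.121% and 0.109% of the counts in the S13 controls and 0.109%, 0.184% and 0.083% under salt. Salt library 2 was the highest and salt library 3 the lowest. Os06g0146800 and Os06g0147100 alone made up 15.8% and 11.9% of these counts in the controls and 43.3%, 72.2% and 43.4% under salt. Salt library 2 was the highest of the salt libraries in 26 of the 58 genes and the lowest in 23. Its part in the chromosome 6 values was not tested beyond leaving it out.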

How the data were processed

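Roots of 2 rice genotypes at 0 or 140 mM NaCl were compared in 10 libraries. Whole-number counts per gene were deposited by the authors, with exon positions and lengths; per the submitters' processing notes the tools were FastQC, Trimmomatic, HISAT2, featureCounts and DESeq2 on IRGSP-1.0, with versions and settings not given in the sources used here.

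Counts were tested in edgeR 4.0.16 (R 4.3.3): filterByExpr removed 10789 genes and kept 28189, TMM factors scaled the libraries, and glmQLFit with glmQLFTest was fitted over all 10 libraries in 4 groups, with Benjamini-Hochberg adjustment and a threshold of 0.05. SE is the absolute log2 fold change divided by the square root of F. The procedure was tested on simulated data. DESeq2 1.42.0 and limma 3.58.1 (voom), other scalings, filters, samples in the fit and thresholds of the rule were alternatives. Intervals and floors cover counting error only.

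The genes and lists were chosen with earlier results of these data known. Genes were named by rule: the group from Os06g0146700 to Os06g0147100, the 8 highest, the 5 largest called rises and 5 largest called falls, 5 runs with their flanks, ranked by number of genes and, among ties, by summed median CPM, and genes next to the thresholds. Os01g0590300, Os02g0216600, Os02g0216700, Os04g0372400, Os04g0380500, Os05g0333000, the genes around the chromosome 6 stretch, those with 0 counts in 1 S13 library, Os06g0347966 and the overlapping pairs were named after their values were seen, as were the remaining runs and their neighbours. Runs were found in order of start position. Of 37849 nuclear identifiers 1 could be paired with a name in the reference table used here. No sequences were used here.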

Additional observations from a re-analysis of the deposited data

How the results depend on the processing

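The 8 rises and 6 falls under salt became 4 and 15 with library totals, 13 and 9 with DESeq2, and 15 and 11 with limma-voom. Over all genes the shares of rises and falls were 12.8% and 14.2% in the main fit and 4.88% and 35.5% with library totals. They were 17.6% and 16.2% with DESeq2, and 12.6% and 16.5% with limma-voom. Leaving out 1 S13 library gave 0 to 9 rises and 1 to 7 falls, and a median log2 fold change of 0.16 to 0.34. The median of 0.19 was -0.55 with library totals. The causes were not tested, except that leaving out a control leaves 1 library in that group, which is then assumed to vary like the other groups.

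Deviations from the group means had correlations of -0.135 to 0.199 between same-numbered libraries of different groups. Libraries with different numbers were not compared, so these values cannot decide whether the replicate numbers pair the libraries. With a replicate block, 6 genes rose and 4 fell, with a median of 0.17, and Os04g0111500 was at 0.0. The S13 libraries alone gave 6 and 6. Over all genes 10.2% rose and 11.5% fell with the block, and 9.15% and 10.8% in the S13 libraries alone.

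The number of S13-only genes was 36 at 2 CPM, 19 at 5 CPM and 80 at 0.5 CPM. It was 64 with TMM-scaled CPM (57 shared), 68 with up to 1 count in each S3 library, 72 with up to 3 S3 counts in all, and 58 to 69 without 1 library. Genes in runs ranged from 17 to 25, in 8 to 12 runs.

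Among 332 values of 24 named genes, 281 kept direction and side of the threshold, 37 lost the call, 6 gained it and 8 changed sign, all in genes that were not called. Os04g0111500 (-0.03) was 0.0 with DESeq2 size factors and with DESeq2, and ranged from -0.15 to 0.1 without 1 S13 library. Library totals gave Os02g0216500 -0.39, Os03g0349600 -0.54 and Os04g0111900 -0.19. Os03g0349700 (-0.12) ranged from -0.35 to 0.13 without 1 S13 library.

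With 2 control and 3 salt libraries, genes near 1 CPM rest on few reads, and a miss of the threshold does not show that a gene did not respond.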

Other observations

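Outside the rule, 64 genes at 0 in S3 reached 1 CPM in both S13 controls but not in all 3 salt libraries, and 9 reached it in all 3 salt libraries but not in both controls. Of these, 24 and 4 were called for salt by edgeR's quasi-likelihood test at adjusted p under 0.05. Their classes were set by the salt contrast, so the calls are a description. The 64 and the 9 are not on equal terms, as the classes ask for 2 and 3 passing libraries. The 1 CPM was on library totals, with TMM factors of 1.33 and 1.35 in the controls and 0.92, 0.73 and 0.77 under salt. On the TMM scale it is thus a lower bar in the controls. Among the 64, some genes had 0 counts in S13 salt 2 alone, such as Os07g0654300. It had 311 and 117 counts in the controls and 11, 0 and 122 under salt.

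Among the 9, Os08g0262500 had 0 counts in both S13 controls and 168, 150 and 193 in the salt libraries. Os06g0159400 (chromosome 6, 3035412 to 3039390) had 19 and 26 counts in the controls and 142, 228 and 31 under salt. Os11g0639300, next to the S13-only gene Os11g0639400, had 21 and 29 in the controls and 61, 71 and 97 under salt. Os10g0386300 had 22 and 34 in the controls and 175, 68 and 49 under salt.

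The other 5 were low in S13 control 1 and not in control 2. Os01g0781100 had 0 and 181 counts in the controls and 163, 94 and 106 under salt. Os06g0656201 had 2 and 231 in the controls and 237, 76 and 126 under salt, and Os06g0190800 had 1 and 138 against 40, 32 and 26. Os04g0405401 and Os09g0310800 had 0 counts in control 1 and 714 and 145 in control 2.

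Loci with 0 counts in a single S13 library differed in their S3 reads. Os03g0830500 had 2120, 2893, 1520 and 1601 counts in the first 4 S13 libraries and 0 in S13 salt 3, with 4 and 16 in the S3 controls and 177, 270 and 988 in the S3 salt libraries. Os02g0156100 had 1532 and 436 in the controls, 112, 0 and 425 under salt, and 1040 to 1637 in S3. Os04g0470901 had 1063 and 215 in the controls, 32, 0 and 43 under salt, and 0 in S3. These genes were picked after their values were seen.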
